A study of Mus musculus with 2 samples.

Results

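The Tcf/Lef genes of the mouse are Tcf7l1, Lef1, Tcf7 and Tcf7l2, and their promoter regions were read on a pair of arrays that measured the DNA bound by the Tcf3 protein in embryonic stem cells. Tcf3 is the array's older name for Tcf7l1, the gene of the immunoprecipitated protein itself. The current symbol Tcf3 belongs to another gene, the one for the E2A proteins, which the array lists on chromosome 10 as Tcfe2a and which is no member. Members were the non-control spots whose gene name on the array is Tcf3, Lef1, Tcf7 or Tcf7l2. They came to 4 of the 17097 genes and 145 of the 474380 probes, and 0 hyphen-joined gene names held a member.

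The study used mouse embryonic stem cells of the E14 line, grown without feeder cells, fixed for 10 min in 1% formaldehyde and broken to DNA fragments averaging 500 bp. Immunoprecipitated DNA (Cy5) and input DNA (Cy3) were amplified, labelled and hybridised together for 40 h to 2 promoter arrays that share 0 probe sequences, so each Tcf/Lef gene was read on 1 array. The labels name several antibodies without tying one to the arrays, and Tcf3 is taken from the sample titles. The arrays read DNA and no expression, so the cell type could not be set against its markers.

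Tcf/Lef proteins bind DNA through an HMG box, and the sequences they favour hold the core CTTTG. Without Wnt signals they work with Groucho/Tle corepressors, and with Wnt signals beta-catenin joins them and target genes can be switched on. In mouse embryonic stem cells Tcf7l1 is known mainly as a repressor, while Lef1 and the full-length form of Tcf7 are known as activators with beta-catenin, and Tcf7l2 acts in both ways depending on the tissue.

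The value of a probe is log2 of its Cy5 over its Cy3 signal, centred on the median of its array. A value of 0 is thus the median ratio of the array, and 1 is a doubling of the ratio over that median. At 30.7% of probes on array 1 and 51.7% on array 2, Cy5 was not above background and is a surrogate intensity. Centred on measured spots instead, the top Lef1 probe goes from 4.37 to 4.41 and the top Tcf7 probe from 1.60 to 1.78. Every probe is 1 spot, with no replicate and no control immunoprecipitation. No test between groups was possible, and everything below describes these 2 hybridisations. An SD given with a mean is the spread over neighbouring probes and not over samples. Any probe joined with the closest probe to its left and right, up to 1000 bp away, is called a set here, and each gene is ranked by its highest set mean. A gene with more probes has more sets from which its highest mean is taken. Ranks and calls were not adjusted for this. The ranked genes had a median of 28 probes on either array.

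The highest measured probe of each gene is shown first, with chosen other probes of Tcf7l1, Lef1 and Tcf7. The differences between the genes lie in what surrounds these top probes. The first 4 are neighbours at Tcf7l1 and form its highest stretch. They are followed by the highest Lef1 probe with its upstream neighbour, and by the highest measured probes of Tcf7 and Tcf7l2. Other measured probes higher than some of these are not printed, at 2.03 for Tcf7l1 and at 2.65, 1.95 and 1.59 for Lef1. Letters are 5′ to 3′ as the array lists them, in lower case, and capitals mark the core CTTTG or its reverse complement CAAAG. Positions are those of the array annotation, the genome build of which is not given in the sources used.
Tcf7l1 chr6:72805248-72805297: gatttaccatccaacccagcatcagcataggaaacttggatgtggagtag
Tcf7l1 chr6:72805470-72805521: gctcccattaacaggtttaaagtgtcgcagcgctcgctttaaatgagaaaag
Tcf7l1 chr6:72805645-72805696: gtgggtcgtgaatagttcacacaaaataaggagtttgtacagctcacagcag
Tcf7l1 chr6:72805918-72805970: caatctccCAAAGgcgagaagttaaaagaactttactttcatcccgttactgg
Lef1 chr3:130942498-130942547: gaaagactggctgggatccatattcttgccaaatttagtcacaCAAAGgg
Lef1 chr3:130942646-130942690: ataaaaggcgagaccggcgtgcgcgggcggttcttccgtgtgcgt
Tcf7 chr11:52240039-52240083: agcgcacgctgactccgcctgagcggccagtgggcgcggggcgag
Tcf7 chr11:52237476-52237526: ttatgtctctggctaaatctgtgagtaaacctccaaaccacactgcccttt
Tcf7l2 chr19:55656890-55656934: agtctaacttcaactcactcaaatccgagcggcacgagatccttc

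Of the 4 probes with the highest measured value of their gene, none holds the core, and the nearest core to the top Tcf7l1 probe among those printed lies in the last probe of its stretch. This covers the letters of the probes alone and not the bases between them. Start sites were placed on the arrays' coordinates where a whole probe matched a RefSeq promoter window of assembly GRCm38.p6 letter for letter, which succeeded for Lef1, Tcf7 and Tcf7l2. No probe matched the Tcf7l1 window, so its probes are placed only by their distance from its highest probe, and whether they lie in an exon or an intron was not determined.

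Tcf7l1 held the highest set mean of the 4 genes, and high values there covered several probes in a row. Its 27 probes lie on array 1 at chr6:72804639-72812285 and ranged from -0.49 to 3.41, with a median of 0.63. Of these probes 21 were above 0 and 10 above 1, which is 37.0% against 16.1% of all probes of the array above 1. Of the 10, 8 were measured in both channels, and the others, at 1.53 and 2.16, carry surrogates. The gene's median was as high as or higher than that of 93.0% of the 8500 genes on the array with at least 3 probes. High values at Tcf7l1 were thus not limited to its top probe.

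The stretch of Tcf7l1 from chr6:72805248 to chr6:72805970 held 4 consecutive probes with values of 1.88, 3.41, 2.09 and 1.85 in genomic order. Their Cy5 signals were 4169, 3879, 2308 and 1265 intensity units, and their Cy3 signals 1343, 431, 642 and 415. All 4 were well over 1, with a mean of 2.31 ± 0.74 (SD over 4 probes of 1 array) across 723 bp. On array 1, 315 probes lay above the top value of 3.41. The highest set mean, centred on that probe, was 2.46 ± 0.83 (SD over 3 probes), or 5.49 times the median ratio of the array. It ranked 154 among the 8500 genes.

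Beyond the stretch the Tcf7l1 values came down unevenly. The probe at chr6:72806758-72806802 stood at 2.03 and the one at chr6:72807227-72807271 at 1.68, both rich in G and C at 64.4% and 71.1%. Up to the last measured value above 1 the gene had 13 measured probes, with a mean of 1.32 ± 0.99 (SD). The 9 measured probes beyond it averaged 0.28 ± 0.40 and reached at most 0.77. The boundary between these probes was drawn from the values themselves, so their difference is a description of the profile. A value of 2.16 at the far end of the region came from a spot whose Cy5 and Cy3 signals both fell below background.

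**Figure D1:**
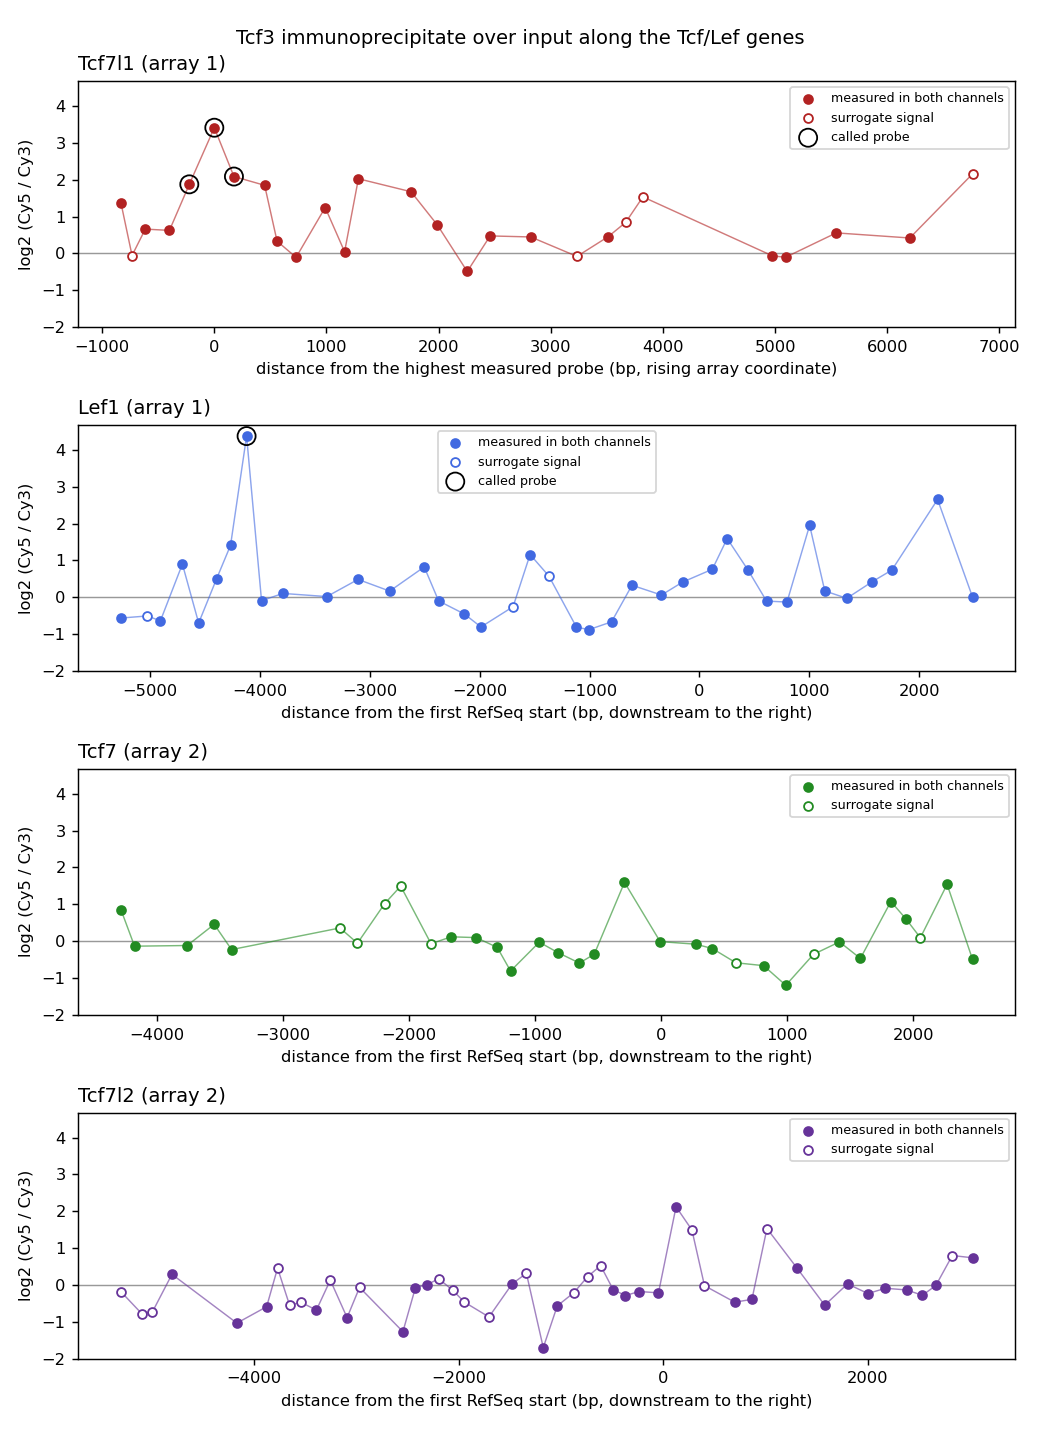
Log2 ratio of Cy5 (immunoprecipitated DNA) over Cy3 (input) of each probe of Tcf7l1, Lef1, Tcf7 and Tcf7l2, against distance in bp, with measured spots filled, spots that carry a surrogate signal open, and called probes ringed. Distance runs from the first start site, and for Tcf7l1 from its highest measured probe. Tcf7l1 has 4 neighbouring measured probes between 1.85 and 3.41, whereas the top probes of Lef1 (4.37), Tcf7 (1.60) and Tcf7l2 (2.12) have no measured neighbour on either side above 1.41.

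Lef1 carried the highest single Tcf/Lef probe, and that probe stood nearly alone. Its 38 probes lie on array 1 at chr3:130941496-130949300 and ranged from -0.88 to 4.37, with a median of 0.14. Of these probes 6 were above 1, or 15.8%, against 16.1% of all probes of the array. The median of Lef1 was at or above that of 71.4% of genes, so the region as a whole stood less high in the array than that of Tcf7l1.

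The top Lef1 probe, at chr3:130942646-130942690, lies 4120 bp upstream of the first start site. It read 4.37, from a Cy5 signal of 32232 and a Cy3 signal of 1837 intensity units, and 21 probes of array 1 were higher. Its neighbours read 1.41 upstream and -0.09 downstream. The spot was not saturated, and its neighbours' mean of 0.66 is far below its own value. The highest set mean of Lef1, 2.10 ± 2.02 (SD over 3 probes), or 4.27 times the array's median ratio, is centred on the neighbour at 1.41 and ranked 707 of 8500. Its SD is about as large as its mean, whereas that of Tcf7l1 is 0.83 on a mean of 2.46.

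Other measured Lef1 probes above 1 were scattered. Downstream of the first start site these were 1.59 at 252 bp, 1.95 at 1002 bp and 2.65 at 2166 bp, and upstream of it 1.16 at 1541 bp. None of their neighbours reached 1. The probe at 252 bp, chr3:130947018-130947062, holds CTTTGT on its reverse strand, and so does the 1.41 neighbour of the top probe. No probe lay over the first start. The probe from -177 to -132 bp relative to it read 0.41, and the next, centred 117 bp downstream, read 0.76. The probe over an internal start read 0.01.

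The RefSeq window around the first Lef1 start (GRCm38.p6, chr3:131110047-131110346, plus strand) is printed because it holds 2 copies of the core. The array probe inside it read 0.41, at or above 67.6% of the probes of array 1. Capitals mark the core on either strand, and the window holds neither CTTTGAT nor CTTTGAA.
Lef1 start window: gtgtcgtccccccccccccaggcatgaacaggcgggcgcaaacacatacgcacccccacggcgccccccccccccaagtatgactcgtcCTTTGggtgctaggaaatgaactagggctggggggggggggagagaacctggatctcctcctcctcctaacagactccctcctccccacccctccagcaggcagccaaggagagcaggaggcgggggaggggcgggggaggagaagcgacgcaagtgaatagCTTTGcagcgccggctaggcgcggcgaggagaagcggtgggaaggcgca

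Tcf7 was low over most of its region. Its 33 probes lie on array 2 at chr11:52237272-52244081, with the gene on the minus strand, and ranged from -1.20 to 1.60 around a median of -0.07. Of these probes 5 were above 1 (15.2%, against 17.7% of all probes of array 2), and 3 of the 5 were measured in both channels. The highest, 1.60 at chr11:52240039-52240083, lies 290 bp upstream of the first start site and is 77.8% G and C. Its neighbours read -0.01 and -0.35, and the probes over its 2 placed start sites read -0.01 and -0.20.

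Further into Tcf7, downstream of its first start, lay the other measured pair above 1. The probe at chr11:52237476-52237526, 2270 bp downstream, read 1.54, and the one at chr11:52237919-52237975, 1824 bp downstream, read 1.08. With all spots, the highest set mean of Tcf7 was 0.82 ± 0.79 (SD over 3 probes), at or above that of 32.6% of the 8405 genes ranked on array 2. Over measured spots alone it was 1.26 ± 0.47, at or above 74.8% of genes, and it moved to the probes downstream of the start. The gene's place therefore depended on which spots were read.

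Tcf7l2 had 47 probes, the most of the 4 genes, and the largest number without a usable Cy5 signal. They lie on array 2 at chr19:55651454-55659834, and in 20 of them the Cy5 value is a surrogate. Values ranged from -1.70 to 2.12 with a median of -0.14. Above 1 were 3 probes (6.38%), against 17.7% of all probes of array 2, with surrogates counted in both shares. Of the 3 probes, 1 was measured. That probe, chr19:55656890-55656934, lies 126 bp downstream of the first start site and read 2.12, from a Cy5 signal of 1501 and a Cy3 signal of 352 intensity units. The probe just upstream of the start read -0.21, and the 1.49 on the other side came from a surrogate in both channels.

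The set mean of Tcf7l2 with all spots was 1.20 ± 1.10 (SD over 3 probes), at or above 58.2% of genes on array 2. With measured spots only it was 0.76 ± 1.34, at or above 41.3% of genes. Without the measured probe of highest log ratio, an alternative added after the values were seen, it was 0.77. That mean comes from a set of 2 probes at the far end of the region, which includes a surrogate at 0.80. One probe thus carried the only measured value above 1 at Tcf7l2.

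The height of a top probe was set beside how far its neighbours were raised. For Tcf7l1 the mean of the neighbours on both sides was 1.98, against a median of 0.75 around the 818 measured probes of array 1 whose value was within 0.5 of its own, and 89.4% of those were at or below it. For Lef1 it was 0.66, against 0.91 around 93 probes, with 44.1% at or below. For Tcf7 it was -0.18, against 0.27 around 7867 probes of array 2, with 24.3% at or below. For Tcf7l2 it was 0.64, against 0.41 around 3629 probes, with 62.9% at or below, but one of its neighbours is the surrogate at 1.49 and the other the measured probe at -0.21. The neighbours of the top Tcf7l1 probe were thus higher than those of most measured probes of like value, which can include flanks of higher peaks. Those of Lef1 and Tcf7 were below the median of their comparison, and that of Tcf7l2 was above it with the surrogate counted. Neighbours in these comparisons were read with all spots, surrogates included. The measured Tcf7l2 neighbour at -0.21 alone has therefore no like comparison. Fragments averaged 500 bp and the median spacing of probes was 183 bp on array 1 and 182 bp on array 2, so a fragment can span several probes.

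**Figure D2:**
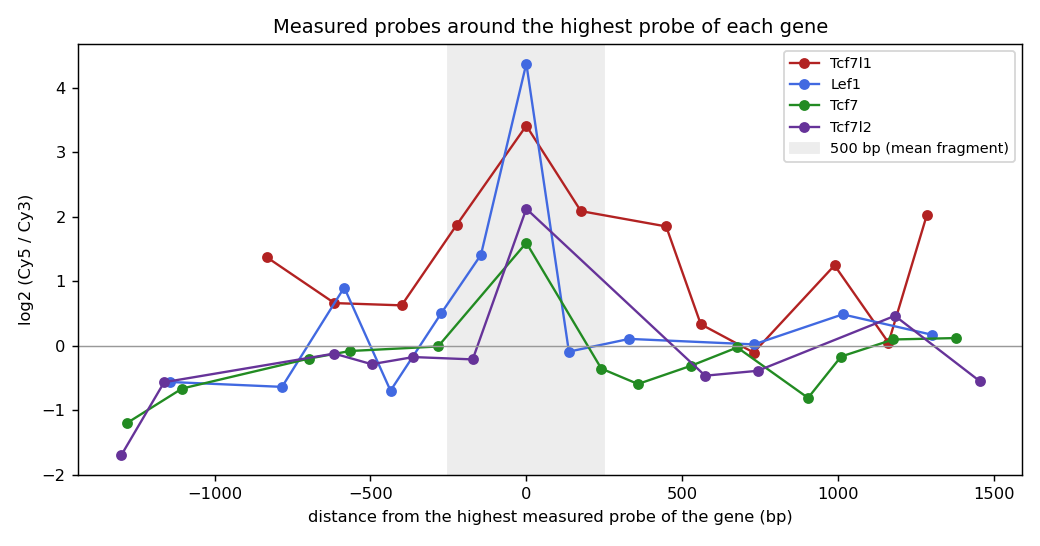
Log2 ratio of Cy5 over Cy3 of the measured probes around the highest measured probe of each Tcf/Lef gene, against distance from that probe in bp, with the mean fragment length of 500 bp shaded. The Tcf7l1 line stays at or above 1.85 over 4 probes, the Lef1 line falls to 1.41 on one side of 4.37 and to -0.09 on the other, and the Tcf7 and Tcf7l2 lines are below 0 beside their top probes at 1.60 and 2.12.

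A gene was called when one of its probes passed a neighbourhood rule: a set mean with an upper-tail normal probability under 0.001 on its array, plus a single probe under 0.001 beside one under 0.1, or 2 of the set's probes under 0.005. These probabilities describe the scatter on an array and serve only as a threshold. Of the 4 Tcf/Lef genes, 2 were called, Tcf7l1 by 3 probes and Lef1 by 1, against 12.8% of all 17097 genes and 2.12% of the probes of array 1. The 2 called genes lie on array 1, where 22% of genes were called, and Tcf7 and Tcf7l2 lie on array 2, where 3.55% were. Gene and array cannot be told apart in these calls. Cy5 was well above background at 69.1% of probes on array 1 and 48.1% on array 2.

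**Figure D3:**
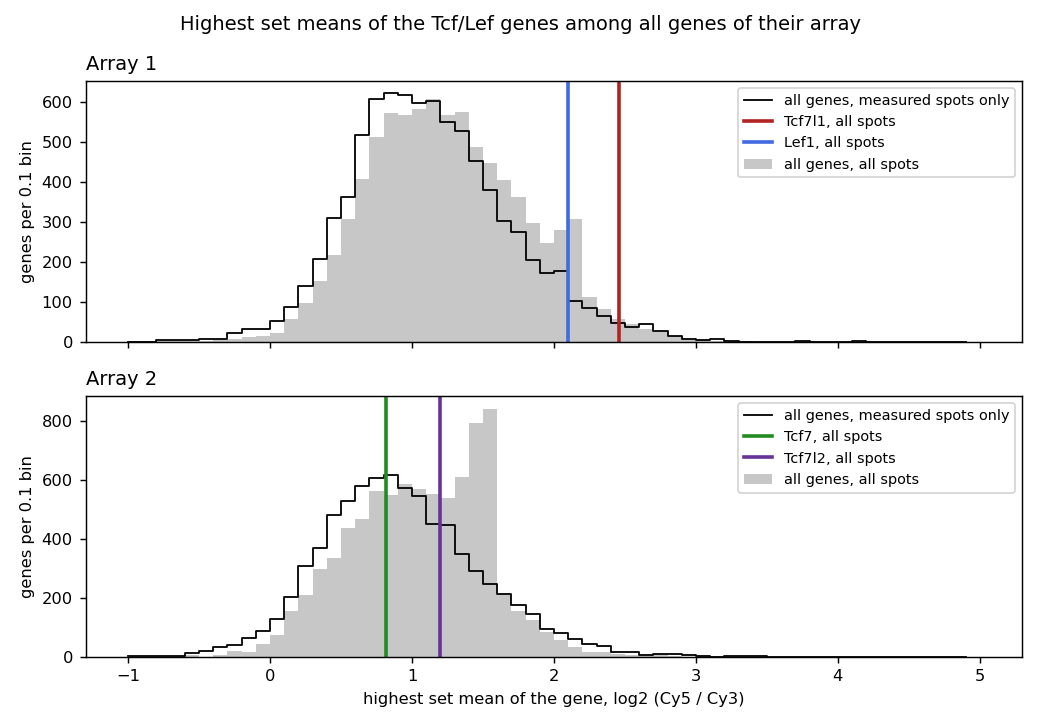
Number of genes per 0.1 of highest set mean (log2 of Cy5 over Cy3) on each array, with all spots in grey and measured spots as a black line, and the Tcf/Lef genes at their all-spot values as vertical lines. Tcf7l1 (2.46) lies in the upper tail, Lef1 (2.10) beside a pile-up of genes near 2.13 on array 1, and Tcf7 (0.82) and Tcf7l2 (1.20) lie below the pile-up near 1.49 on array 2.

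The pile-ups in the distribution of set means lie near the values of spots below background in both channels. Such spots numbered 5217 on array 1 with a median value of 2.13, and 18545 on array 2 with a median of 1.49, though neither channel was measured. Lef1 stands beside the first. It ranked 404 of 8311 over measured spots, a setting that also drops the 67528 spots of array 1 with a surrogate in Cy5 only, and 707 of 8500 with all spots. Tcf7l1 ranked 147 of 8311 over measured spots and 154 of 8500 with all spots. Over measured spots the called members were again Tcf7l1, by 4 probes, and Lef1, by 1 probe, against 15.9% of genes and 1.44% of probes called on array 1, and Tcf7 and Tcf7l2 were not called, against 10.5% of array 2 genes.

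Over the upper range of G and C content, the median log ratio of measured probes rose with it on both arrays, and the members' probes lie at different places on that trend. Over measured spots alone, values are centred again on the median of those spots, where the 4 probes of the Tcf7l1 stretch read 1.92, 3.45, 2.13 and 1.89. With the median of each 2% bin of GC content subtracted as well, they read 1.90, 3.55, 2.23 and 2.17, at 41.5% to 46.0% G and C. Its highest set mean was then 2.65 ± 0.78 (SD over 3 probes), rank 56 of 8311. The GC-rich Tcf7l1 probes at 2.03 and 1.68 became 1.10 and 0.36.

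At Lef1 the same subtraction brought the top probe, 64.4% G and C, to 3.45 and the highest set mean to 1.94 ± 1.35 (SD over 3 probes), rank 442 of 8311, with 2 called probes, where 1.67% of the array's probes were called. At Tcf7 the 1.60 probe became 0.25, whereas the pair downstream of the start became 1.99 and 1.53. The Tcf7 set mean was then 1.49 ± 0.52 (SD over 3 probes), at or above 92.0% of genes on array 2, and the gene was still not called. The top Tcf7l2 probe became 2.33. The share of genes called after this subtraction was 18.7% on array 1 and 7% on array 2.

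**Figure D4:**
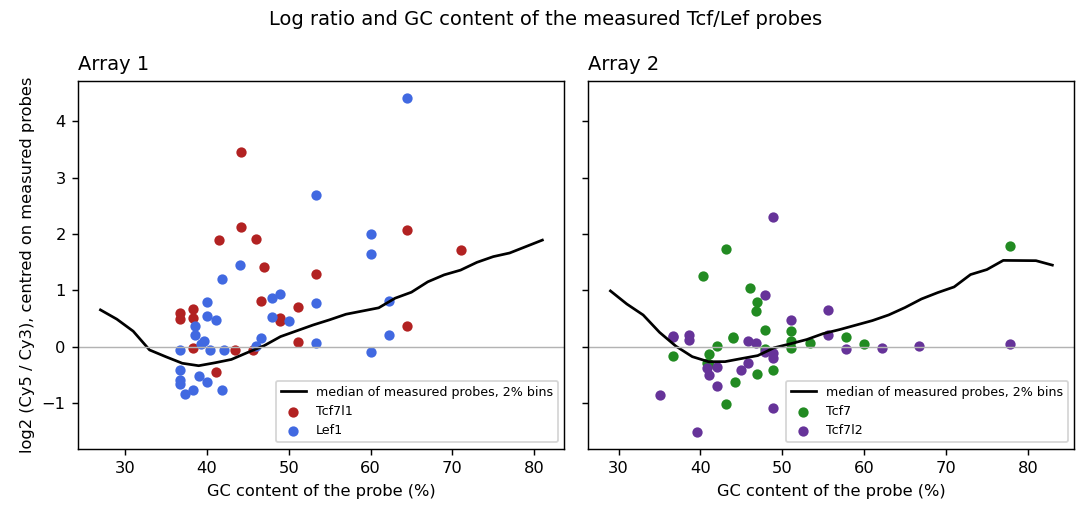
Log2 ratio of Cy5 over Cy3 of each measured Tcf/Lef probe, centred on the median of measured probes, against its G and C content in percent, with the median of all measured probes per 2% bin as a black line. The Tcf7l1 stretch (1.89 to 3.45) lies far above the line at 41.5% to 46.0%. The top Lef1 probe (4.41) lies 3.45 above it at 64.4%, and the top Tcf7 probe (1.78) lies 0.25 above it at 77.8%.

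An alternative added after the values were seen left out the measured probe of highest log ratio at each gene. It gave Tcf7l1 a highest set mean of 1.94 and the gene was still called. Without its highest probe Lef1 had a highest set mean of 1.33 and was no longer called. That mean comes from a set of 2 probes at the far end of the region, at chr3:130949245-130949300, and not from the peak. The Lef1 call thus needed the probe at 4.37, and the Tcf7l1 call did not need the one at 3.41. Background correction by the normexp method called all 4 members, but also 49.3% of all genes. With the other alternatives the called members were Tcf7l1 and Lef1, while the share of all genes called was 7.91% with the deposited log10 ratio, 12.1% without dim input, 8.18% and 16.4% at set probabilities of 0.0001 and 0.01, and 12.6% with neighbours within 500 bp.

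**Figure D5:**
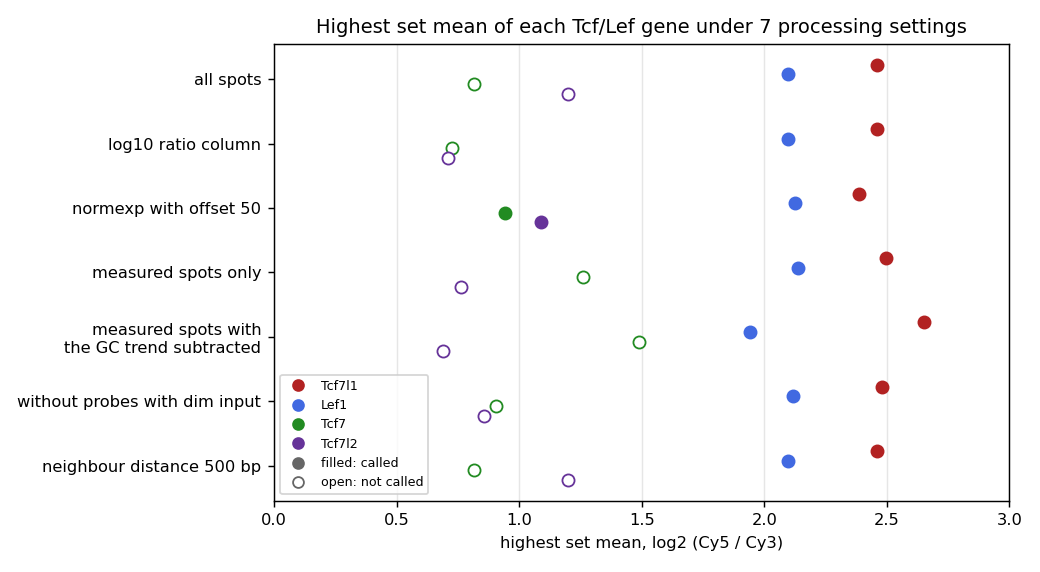
Highest set mean (log2 of Cy5 over Cy3) of Tcf7l1, Lef1, Tcf7 and Tcf7l2 under 7 ways of processing the arrays, filled where the gene was called and open where it was not. Tcf7l1 (2.39 to 2.65) and Lef1 (1.94 to 2.14) were called in all 7, while Tcf7 (0.73 to 1.49) and Tcf7l2 (0.69 to 1.20) were called only with normexp.

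The genes nearest to a called member in highest set mean were read from array 1 with all spots. Around Tcf7l1 these were Olfr609, D630039A03Rik and Setd5 just above and Zfp238, Nkx2-4 and Rab2 just below, all called, with set means of 2.45 to 2.46. Over measured spots all of them but Olfr609 were called, and after GC subtraction D630039A03Rik (2.50) and Nkx2-4 (1.78) were. Around Lef1 they were Olfr1036, Scn7a and Msr1 above and Tas2r110, Xcl1 and Lancl2 below, at 2.09 to 2.10. Of these only Xcl1, a chemokine gene, was called over measured spots, and after GC subtraction Scn7a (2.02), Tas2r110 (1.95), Xcl1 (2.61) and Lancl2 (1.74) were. The likeness is one of a single number on 1 array.

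Motifs were searched in the probe letters on both strands, and the later added core CTTTG is contained in each of the others. The motif CTTTGAT occurred in 2 of the 145 Tcf/Lef probes (1.38%), against 1.11% of all probes, both of them at Tcf7 and with values of 0.10 (measured) and 1.49 (a surrogate). The motif CTTTGAA occurred in 1 probe (0.69%), at Tcf7l2 with a value of 0.01, against 1.70% of all probes. The motif CTTTGT occurred in 6 probes (4.14%), against 5.48%, with values from -0.66 to 1.59, and the core in 31 (21.4%), against 17.2%. The members' shares thus lay on both sides of those of the arrays, and the highest measured probe of each gene held none of these letters. Probe letters cover 18.5% of the Tcf7l1 region, 25.7% of that of Lef1, 24.3% of that of Tcf7 and 29.7% of that of Tcf7l2. A motif between probes would be missed, so a top probe without one does not mean a peak without one.

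In the RefSeq promoter windows, CTTTGT was found in the single Tcf7l1 window, in 1 of 4 Lef1 windows and in 1 of 2 Tcf7l2 windows, and in neither Tcf7 window. It occurs in 18.7% of all 32851 windows. CTTTGAT and CTTTGAA, held by 3.73% and 5.14% of all windows, were in none of the members' windows. The core was in all windows of Tcf7l1, Lef1 and Tcf7l2 and in neither of Tcf7, against 53.9% of all windows.

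Other genes of the pathway were taken from 3 lists, of which 57 of 66 genes had a name on the arrays, and 10 of the 57 were called with all spots, against 12.8% of all genes. Among nuclear partners of Tcf/Lef proteins, 2 of 16 were called with all spots and 4 of 16 over measured spots, where 13.2% of all genes were. The 2 called with all spots were among the 5 of the list on array 1. Ctbp2, a corepressor gene, had a highest set mean of 2.36 ± 1.42 and Tle1, a Groucho corepressor gene, 1.99 ± 1.06 (SD over 3 probes each), and both were called. Ctnnb1, the gene of beta-catenin, had 1.46 ± 1.00 and Tle4, another Groucho gene, 1.44 ± 0.63, and neither was called with all spots. Over measured spots both were called, and after GC subtraction Tle4 was and Ctnnb1 was not. Tle3 had 1.09 ± 0.50 and was not called with all spots or over measured spots, and was called after GC subtraction. The median over this list was 1.09, against 1.15 over all genes, with all spots, and it lay above that of all genes over measured spots (1.17, against 0.98), with the log10 ratio (1.05, against 0.80), without dim input (1.15, against 1.06) and after GC subtraction (0.87, against 0.85).

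Among genes of the beta-catenin destruction complex and Wnt targets, 3 of 18 were called with all spots, against 12.8% of all genes, namely 1 of the 5 on array 1 and 2 of the 13 on array 2. Axin2, the feedback inhibitor that is a standard Wnt target, had a highest set mean of 2.43 ± 0.27 on array 2, the array with few calls, and was called also over measured spots (2.62) and after GC subtraction (2.49). Cdx1, a homeobox gene, had 2.20 ± 0.65 and Ccnd1, the cyclin D1 gene, 1.59 ± 1.00, and both were called. After GC subtraction Cdx1 (2.33) was called and Ccnd1 (0.87) was not. Gsk3b, a kinase gene of the complex, had 1.68 ± 1.63 and was not called. The median over this list was 1.17, against 1.15 over all genes, with all spots, 1.31, against 0.98, over measured spots and 1.17, against 0.85, after GC subtraction.

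Among other genes with an HMG box, 5 of 23 were called with all spots, against 12.8% of all genes, 11 of 23 over measured spots, against 13.2%, and 6 of 23 after GC subtraction, against 12.9%. The 5 called with all spots were among the 12 of the list on array 1, where 22% of genes were called, and 0 of the 11 on array 2 were called, where 3.55% of genes were. Hmgxb4 had a highest set mean of 2.43 ± 0.77 and Sox2, a pluripotency factor, 2.22 ± 0.57, and both were called with all spots. Sox4 had 2.25 ± 1.79 and Hmgb3 1.94 ± 0.57, both on array 2 and not called with all spots. Over measured spots Sox4 (2.43) and Hmgb3 (2.12) were both called. After GC subtraction Sox2 stood at 2.36 and Sox4 at 1.74, both called, while Hmgb3 at 1.45 and Hmgxb4 at 1.10 were not called. The median over this list was 1.44, against 1.15 over all genes with all spots, and 0.95, against 0.85, after GC subtraction.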

How the data were processed

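Chromatin immunoprecipitated from E14 cells (Cy5) and input DNA (Cy3) were hybridised to 2 arrays. Scanned by the authors, the arrays went through Agilent Feature Extraction 9.1.1.1, as their headers state. For each dye the deposited value is an intensity after background subtraction, detrending and linear dye normalization, per the file headers. A signal not above background is replaced by a surrogate intensity, and a spot with a surrogate in either channel is called not measured here. The log10 ratio that the authors deposited served as an alternative, and the series value table, which holds the error of that ratio, was not used.

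Values were log2 of processed Cy5 over Cy3, centred on the median of each array without non-uniform spots (9 on array 1 and 18 on array 2). The scale of each array, from the values below its median, was 0.72 on array 1 and 0.78 on array 2. The calling rule follows the neighbourhood model that the labels name, whose own calls were not analysed here. How often the rule calls a gene without binding on these arrays was not tested. Neither array was repeated and no control immunoprecipitation was used, so no replicate error exists, and precision is limited by having 1 array per Tcf/Lef gene. Named genes are the 4 members, the 3 genes on each side of a called member by highest set mean among genes with at least 3 probes, the 4 highest genes of each list, and Ctnnb1, Axin2, Tle3 and Sox2. The members, lists and rules were chosen with earlier results of these data known. Array names were updated and start sites placed with RefSeq tables of assembly GRCm38.p6. Alternatives were the log10 ratio, normexp with an offset of 50 (limma 3.58.1 in R 4.3.3), measured spots, GC subtraction, removal of dim input, set probabilities of 0.0001 and 0.01, and neighbours within 500 bp. Python 3.11.15, numpy 2.4.6, pandas 2.3.3, scipy 1.17.1 and matplotlib 3.10.9 were used.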

Additional observations from a re-analysis of the deposited data

How the results depend on the processing

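Of the values computed under alternatives, 12 moved and 56 did not. A set mean moved if it changed by more than its SD over probes, and a count if by more than 1.5 times. No set mean moved, but the SD is wide where 1 probe stands far above its neighbours, so this does not show that set means were stable. The Lef1 change from 2.10 to 1.33 without its highest probe lay within its SD of 2.02. The Tcf7 change from 0.82 to 1.49 after GC subtraction lay within its SD of 0.79. Genes called numbered 2192 with all spots, 1352 with the deposited log10 ratio, 8428 with normexp and 1398 at a set probability of 0.0001. Tcf/Lef genes called numbered 2, and 4 with normexp. Nuclear partners called numbered 2, 11 with normexp, 4 over measured spots and 4 after GC subtraction. Destruction complex and target genes called numbered 3, and 14 with normexp. Other HMG-box genes called numbered 5, 18 with normexp, 11 over measured spots, 9 without dim input and 3 at a set probability of 0.0001. The cause of these moves was not tested. Leaving out the measured probe of highest log ratio, added after the values were seen, ended the Lef1 call (1.33) and kept that of Tcf7l1 (1.94). No paired analysis was possible because each probe was read on 1 array of 1 sample. Signal over background limits the reading of Tcf7l2 most, with 27 of its 47 probes measured in both channels, against 25 of 33 at Tcf7, 35 of 38 at Lef1 and 22 of 27 at Tcf7l1.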
